A study of Caenorhabditis elegans with 12 samples.

Results

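The Caenorhabditis elegans genes dod-17, dod-19, dod-21, dod-22, dod-23 and dod-24 are described here across the 12 arrays of a study of the hrg-2 mutant and heme. The probe sets were taken by gene symbol in the platform annotation, and the genes were chosen by their heme response on these arrays, where dod-24 was higher at 20 µM heme. Of the 6 genes named, 5 have at least 1 probe set of their own, out of 17138 genes measured. Those 5 genes have 6 probe sets, 2 of them for dod-19. The only probe set that matches dod-21, 184707_s_at, is paired with cld-1 as well, so no value is given to dod-21 itself.

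Worms in mid-late L4, the larval stage before adulthood, were profiled on Affymetrix arrays. The 4 groups of 3 arrays each were hrg-2 mutants with 20 µM heme, hrg-2 mutants with 4 µM heme, wildtype animals with 20 µM heme and wildtype animals with 4 µM heme. The labels give neither the hrg-2 allele nor a tissue, and wildtype animals are labelled as controls. The study asked how loss of HRG-2, a protein of hypodermal cells, bears on heme utilization, at low and at higher heme. Values are log2 expression from RMA (robust multi-array averaging), so a difference of 1 is a change of 2-fold, and levels are compared only within a probe set.

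The name dod stands for "downstream of daf-16". DAF-16 is the FOXO transcription factor that insulin-like signalling through the receptor DAF-2 keeps out of the nucleus, and dod genes were named because their transcripts differ between animals with high and low DAF-16 activity. Several, among them dod-17, dod-22 and dod-24, are known as genes that are lower when insulin-like signalling is reduced, and dod-22, dod-24 and irg-4 are known as intestinal genes that respond to bacterial infection. C. elegans makes no heme of its own and depends on what it takes up. The genes were grouped as CUB-domain genes, after an extracellular protein fold, but the annotation used here gives no protein domains, so that grouping was not checked and the genes are called by symbol.

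The annotation places dod-17 (K10D11.1), dod-21 (C32H11.10), dod-22 (F55G11.5) and dod-24 (C32H11.12) on chromosome IV, dod-19 (ZK6.10) on chromosome V and dod-23 (F49E12.2) on chromosome II. Names, chromosomes and gene order follow RefSeq, and no coordinates are given. The probe sets 184863_s_at of dod-24 and 175170_s_at of dod-19 carry the suffix that marks probes which can match several transcripts.

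Facts of the whole set of arrays bear on every value below. In every group array 3, by the number in its title, differed from arrays 1 and 2, and the median shift, averaged over the 4 groups, was 2.47 log2 units for 11 sperm markers and 1.13 for 10 oocyte and eggshell markers, positive in each group for both lists. For 5 yolk genes the median shift was 3.43 in mutants with 20 µM heme, 4.78 in mutants with 4 µM, 0.80 in wildtype with 20 µM and -1.23 in wildtype with 4 µM. As 0 probe sets match hrg-2, the genotype labels were not checked against the mutated gene. The heme labels were checked with 7 heme trafficking genes, of which hrg-3, hrg-4 and hrg-7 were lower at 20 µM in both genotypes by limma, with a list median of -2.95 in the mutant and -3.42 in wildtype. Whether replicate arrays came from separate cultures is not given in the labels, so p-values reflect the spread between these arrays alone, which may be technical.

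At 20 µM heme dod-24 was higher than at 4 µM in each genotype. In hrg-2 mutants its log2 level (184863_s_at) was 9.20, 9.19 and 7.22 on the arrays numbered 1, 2 and 3 at 20 µM, against 6.72, 5.97 and 5.17 at 4 µM. In wildtype animals it was 9.796, 9.17 and 7.71 at 20 µM, against 7.84, 7.44 and 5.65 at 4 µM. The array numbered 3 was the lowest of its group in all 4 groups. The mutant's heme groups did not overlap, as for 4.87% of all probe sets, while the wildtype array numbered 3 at 20 µM lay just below the wildtype array numbered 1 at 4 µM.

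The group means of dod-24 were 8.54 ± 1.14 with 20 µM and 5.96 ± 0.78 with 4 µM in mutants, and 8.89 ± 1.07 with 20 µM and 6.98 ± 1.17 with 4 µM in wildtype (SD, n = 3 each). The order of the means was wildtype at 20 µM, mutant at 20 µM, wildtype at 4 µM and mutant at 4 µM, and each group overlapped its neighbours in that order. The heme difference (20 minus 4 µM) was 2.58 ± 0.77 (SE) in the mutant, a 5.99-fold difference, and 1.92 ± 0.77 in wildtype, a 3.78-fold difference. With the array number as a block the SE was 0.23 in each genotype. Among 22548 probe sets the heme difference of dod-24 ranked 10 from the top in the mutant and 9 in wildtype. In bulk samples fewer cells that express a gene and less of its RNA per cell cannot be told apart.

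Taken between arrays of the same number, the heme difference of dod-24 was 2.47, 3.22 and 2.05 in the mutant and 1.96, 1.73 and 2.06 in wildtype. All 6 differences were positive, as for 2.73% of all probe sets. The pair numbered 3, whose levels were the lowest, gave a difference as large as the others in wildtype and the smallest in the mutant. On the arrays numbered 1 and 2 alone the difference was 2.85 in the mutant and 1.85 in wildtype. Since the heme response chose dod-24, these values are a description, and the counts of calls given for the heme comparisons are no test of it.

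**Figure D1:**
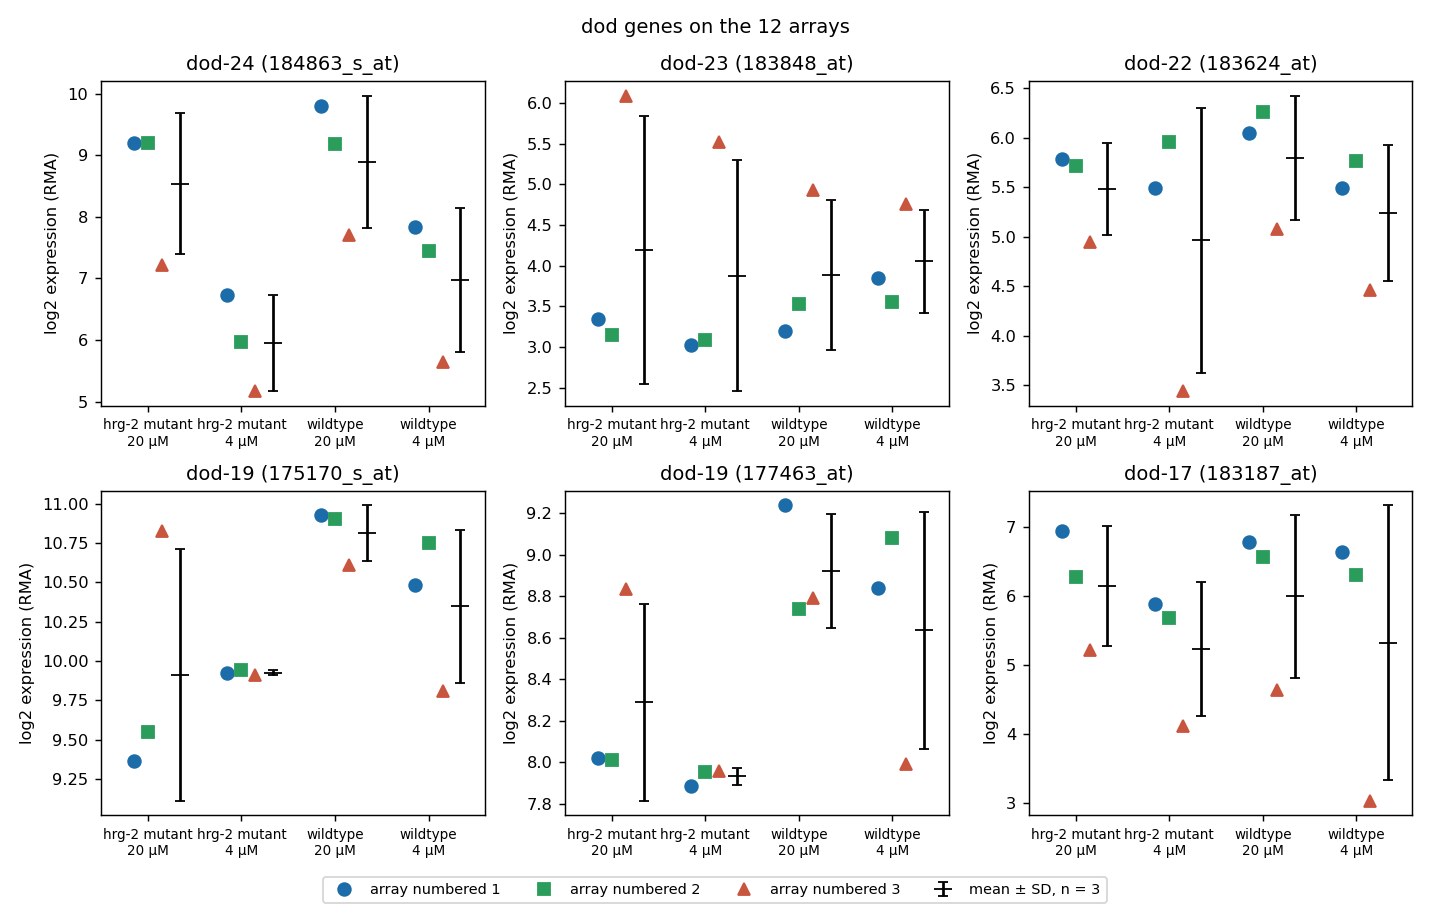
Log2 expression (RMA) of each dod probe set on the 12 arrays, by group and array number, with the mean and SD of each group of 3 (black bars beside the points). The vertical scale differs between panels. On the arrays numbered 3 (triangles) dod-17, dod-22 and dod-24 were the lowest of their group in all 4 groups and dod-23 was the highest.

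The other genes had smaller heme differences than dod-24. For dod-17 (183187_at) the levels were 6.94, 6.28 and 5.21 in mutants at 20 µM, against 5.88, 5.69 and 4.11 in mutants at 4 µM. In wildtype they were 6.78, 6.57 and 4.64 at 20 µM, against 6.64, 6.30 and 3.03 at 4 µM. The groups overlapped in both genotypes, and the heme difference was 0.92 ± 0.97 (SE) in the mutant and 0.67 ± 0.97 in wildtype. Every same-numbered difference was positive, at 1.06, 0.60 and 1.10 in the mutant and 0.14, 0.26 and 1.61 in wildtype, so most of the wildtype mean came from the arrays numbered 3.

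For dod-22 (183624_at) the levels were 5.78, 5.72 and 4.95 in mutants at 20 µM, against 5.49, 5.96 and 3.44 in mutants at 4 µM. Wildtype had 6.05, 6.26 and 5.08 at 20 µM, against 5.49, 5.76 and 4.46 at 4 µM. The groups overlapped. The heme difference was 0.52 ± 0.62 in the mutant, where the pair numbered 2 went the other way (-0.24), and 0.56 ± 0.62 in wildtype, where the 3 pairs lay between 0.50 and 0.62.

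The 2 probe sets of dod-19 had unlike mean heme differences in the mutant, with errors that overlapped. On 175170_s_at the levels were 9.36, 9.55 and 10.83 in mutants at 20 µM, against 9.92, 9.95 and 9.91 in mutants at 4 µM. Wildtype had 10.93, 10.90 and 10.61 at 20 µM, against 10.48, 10.75 and 9.81 at 4 µM. The mutant array numbered 3 at 20 µM stood well above its group, and the mutant arrays at 4 µM were nearly equal. The heme difference was -0.01 ± 0.37 in the mutant (pairs -0.56, -0.40 and 0.92) and 0.47 ± 0.37 in wildtype (0.44, 0.15 and 0.80). On 177463_at it was 0.36 ± 0.31 in the mutant (0.13, 0.06 and 0.88) and 0.29 ± 0.31 in wildtype (0.40, -0.34 and 0.80). The mutant's heme groups did not overlap on this probe set, as for 4.87% of all probe sets.

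For dod-23 (183848_at) the levels were 3.35, 3.14 and 6.09 in mutants at 20 µM, against 3.03, 3.09 and 5.52 in mutants at 4 µM. Wildtype had 3.20, 3.53 and 4.93 at 20 µM, against 3.85, 3.55 and 4.76 at 4 µM. On the arrays numbered 1 and 2 this probe set lay near or below the arrays' lower quartiles, which were 3.56 to 3.82, and only the arrays numbered 3 stood above them throughout. The heme difference was 0.32 ± 0.89 in the mutant and -0.17 ± 0.89 in wildtype. The probe set shared by dod-21 and cld-1 lay between 2.39 and 3.31 on all 12 arrays, against array minima of 1.76 to 1.92.

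Over the 5 genes the median heme difference was 0.52 in the mutant and 0.56 in wildtype, against -0.05 and -0.005 over all probe sets. Limma called 0 of the 5 in the mutant, where it called 0.0399% of all probe sets, and 0 of the 5 in wildtype, where it called 0.0355%. The number called was 1 of 5 in each genotype with the array number as a block, against 0.0798% of all probe sets in the mutant and 0.0665% in wildtype. In the mutant it was 1 of 5 on the arrays numbered 1 and 2 alone, against 14% of all probe sets, and 1 of 5 with array weights, which let arrays that depart from the rest count less, against 4.45%. The gene counted was dod-24 each time, which this response had chosen. All 3 same-numbered differences were positive for 3 of 5 genes in the mutant, against 13.6% of all probe sets, and for 4 of 5 in wildtype, against 13.4%. The heme response was used in the choice of the genes, so nothing is read from these counts.

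**Figure D2:**
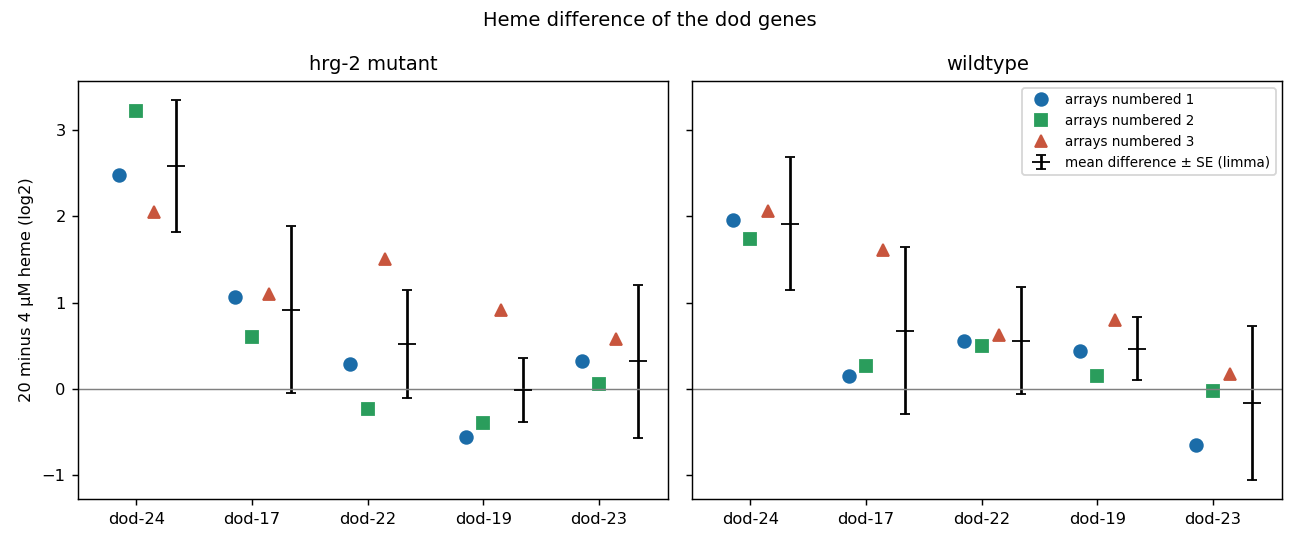
Heme difference (20 minus 4 µM, log2) of each gene in hrg-2 mutants (left) and wildtype (right). Coloured points are differences between arrays of the same number and black bars are the mean difference ± SE from limma. The 6 points of dod-24 lie between 1.73 and 3.22, while those of dod-22, dod-19 and dod-23 fall on both sides of 0 in at least 1 genotype.

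The levels of 4 genes also followed the array number. Against the mean of arrays 1 and 2, array 3 was lower for dod-24 by 1.18 to 1.99 log2 units, for dod-17 by 1.40 to 3.44 and for dod-22 by 0.81 to 2.28, over the 4 groups. All 3 genes were lower on array 3 than on both others in all 4 groups, as did 15.8% of all probe sets. For dod-23 array 3 was higher by 1.06 to 2.85 and lay above both others in all 4 groups, as did 10.2% of all probe sets. For dod-19 (175170_s_at) array 3 was higher by 1.38 in mutants at 20 µM and lower by 0.81 in wildtype at 4 µM, with smaller shifts in the remaining groups.

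Intestine markers, for the tissue in which several of these genes are known to be expressed, shifted on array 3 by a median of -0.25 over 15 of 16 listed genes. Their mean log2 level ran between 10.18 and 10.46 in mutants with 20 µM heme, 10.05 and 10.69 in mutants with 4 µM, 10.34 and 10.84 in wildtype with 20 µM and 10.09 and 10.97 in wildtype with 4 µM. Sperm markers (11 of 12 listed) ran between 5.73 and 7.10 in mutants with 20 µM heme, 4.53 and 8.09 in mutants with 4 µM, 4.66 and 7.21 in wildtype with 20 µM and 4.52 and 7.13 in wildtype with 4 µM. No marker of either list was at 0, since log2 RMA values have no zero, and the part of these markers in the shifts of the dod genes was not tested.

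Across the 12 arrays dod-17 correlated with dod-22 (Pearson r 0.82), dod-17 with dod-24 (0.77) and dod-22 with dod-24 (0.72), while dod-23 ran against them, at -0.69 with dod-17, -0.78 with dod-22 and -0.47 with dod-24. These arrays share the shift of number 3. After the mean of each number was subtracted, dod-17 and dod-24 stood at 0.70, dod-22 and dod-24 at 0.61, and dod-17 and dod-22 at 0.42. The sign of dod-17 with dod-23 then turned to 0.68, and dod-22 with dod-23 was near 0 (-0.05). The 2 probe sets of dod-19 correlated at 0.91.

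In the comparison of hrg-2 mutants with wildtype, none of the 5 genes passed the threshold at either heme level. At 4 µM heme all 5 had lower means in the mutant, and limma called 0 of 5, against 0.00887% of all probe sets. At an unadjusted p under 0.05 it found 0 of 5, against 6.11%. At 20 µM it called 0 of 5, against 0.00443%, and 1 of 5 at an unadjusted p under 0.05, against 1.68%. The median difference (mutant minus wildtype) over the 5 genes was -0.28 at 4 µM and -0.31 at 20 µM, against 0.03 and -0.01 over all probe sets.

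The level of dod-24 at 4 µM had a negative genotype difference in all 3 same-numbered pairs, at -1.12, -1.47 and -0.48, a mean difference of -1.02 ± 0.77 (SE, limma adjusted p 0.838). At 20 µM the pairs were -0.60, 0.02 and -0.49, with a mean of -0.36 ± 0.77 (limma adjusted p 1.00). Averaged over both heme levels it was -0.69 ± 0.54 (limma adjusted p 0.845), and all 3 pairs were negative, as for 16.9% of all probe sets. Without the arrays numbered 3, the difference passed at 4 µM (-1.29, limma adjusted p 0.0308) and averaged (-0.79, 0.0448), in fits that called 13% and 13.3% of all probe sets. With the array number as a block the SE was smaller, at 0.23 at 4 µM and 0.16 averaged. The unadjusted limma p was then 0.00133 and 0.00183, in fits where 2573 and 3091 of 22548 probe sets fell under 0.05. After adjustment the difference did not pass, at a limma adjusted p of 0.319 at 4 µM and 0.158 averaged. Leaving out 1 array at a time, the difference ran from -1.68 (without wildtype array 3 at 4 µM) to -0.59 (without wildtype array 1 at 4 µM) at 4 µM, and from -1.02 to -0.36 averaged.

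The genotype difference of dod-19 on 175170_s_at was negative for the arrays numbered 1 and 2 and positive for those numbered 3. At 20 µM the same-numbered differences were -1.57, -1.36 and 0.22, with a mean of -0.90 ± 0.37 (limma adjusted p 1.00, unadjusted 0.0329). At 4 µM they were -0.56, -0.81 and 0.10, with a mean of -0.42 ± 0.37 (limma adjusted p 0.858). Averaged over heme the difference was -0.66 ± 0.26 on 175170_s_at (limma adjusted p 0.803) and -0.67 ± 0.22 on 177463_at (0.784). Leaving out 1 array at a time moved the difference on 175170_s_at between -1.36 (without mutant array 3) and -0.63 (without mutant array 1) at 20 µM, between -0.69 (without wildtype array 3) and -0.22 (without wildtype array 2) at 4 µM, and between -0.89 and -0.52 averaged.

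On 177463_at at 4 µM the mutant arrays, at 7.89, 7.95 and 7.96, all lay below the wildtype arrays, at 8.84, 9.08 and 7.99, as for 4.28% of all probe sets, with a difference of -0.70 ± 0.31 (limma adjusted p 0.791). Without the arrays numbered 3, dod-19 on 175170_s_at passed at 4 µM (-0.69, limma adjusted p 0.0431), at 20 µM (-1.46, 0.0143) and averaged (-1.07, 0.00377). These fits called 13%, 1.22% and 13.3% of all probe sets. In the same fits 177463_at passed at 4 µM (-1.04, limma adjusted p 0.0211) and averaged (-1.01, 0.00693), but not at 20 µM (-0.97, 0.0714). With array weights dod-19 on 175170_s_at passed at 20 µM (-1.34, limma adjusted p 0.0407) and averaged (-0.99, 0.027), in fits that called 0.297% and 3.86% of all probe sets.

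None of the remaining genes passed for genotype. The differences were -0.10 ± 0.97 at 4 µM and 0.15 ± 0.97 at 20 µM for dod-17, -0.28 ± 0.62 and -0.31 ± 0.62 for dod-22, and -0.17 ± 0.89 and 0.31 ± 0.89 for dod-23, with limma adjusted p values of 0.961 or more. With the array number as a block the error of dod-22 was smaller, at -0.28 ± 0.29 at 4 µM, -0.31 ± 0.29 at 20 µM and -0.30 ± 0.21 averaged (SE, limma adjusted p 0.717, 0.963 and 0.552). Averaged over heme, limma called 0 of 5 genes, against 0.00887% of all probe sets, and 1 of 5, dod-19, had an unadjusted p under 0.05, against 6.18%.

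**Figure D3:**
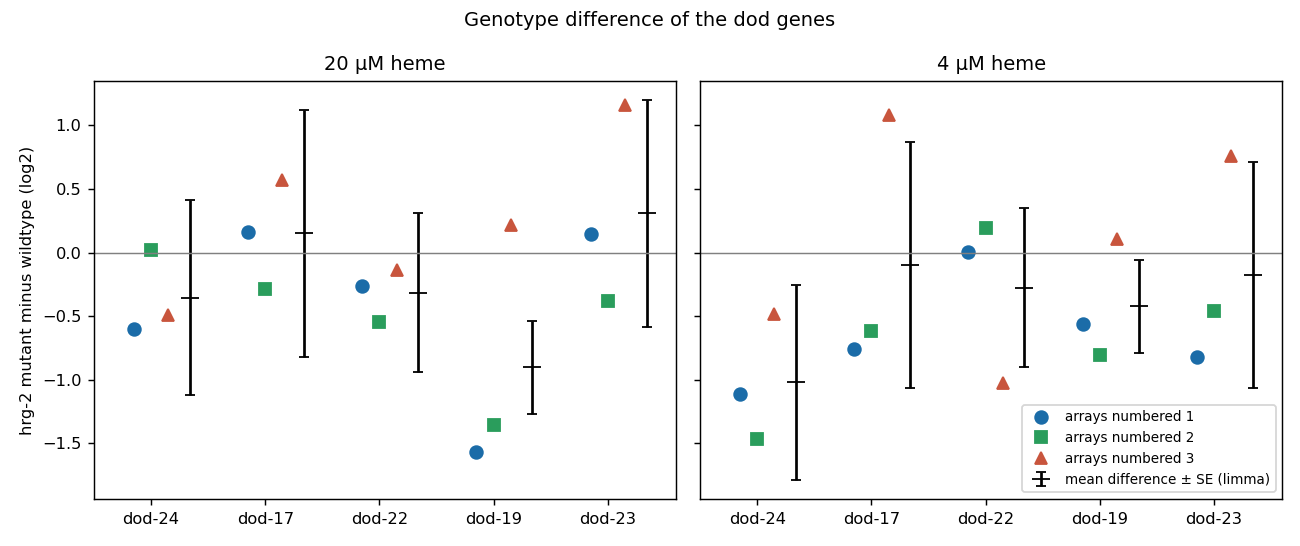
Genotype difference (hrg-2 mutant minus wildtype, log2) of each gene at 20 µM heme (left) and 4 µM heme (right). Coloured points are differences between arrays of the same number and black bars are the mean difference ± SE from limma. For dod-19 the pairs numbered 1 and 2 lie between -1.57 and -0.56 and the pairs numbered 3 just above 0.

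The genotype effect was not shown to differ between heme levels for any of these genes. For dod-24 the heme difference was larger in the mutant by 0.66 ± 1.09, with 0.52, 1.48 and -0.01 for the 3 numbers, and this was not tested because it holds the response that chose the gene. Leaving out 1 array at a time moved it between 0.073 and 1.33, and the same difference for dod-19 on 175170_s_at between -0.94 and -0.20. For the other genes the difference between genotype effects (20 minus 4 µM) was 0.25 ± 1.37 for dod-17 and -0.48 ± 0.52 for dod-19 on 175170_s_at. It was -0.04 ± 0.88 for dod-22 and 0.48 ± 1.26 for dod-23. Each had a limma adjusted p of 1.00. On 177463_at, the other probe set of dod-19, the difference was of opposite sign, at 0.07 ± 0.44. Limma called 0% of all probe sets here. Of the genes other than dod-24, 0 had an unadjusted p under 0.05, against 1.65% of all probe sets.

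The genes most like dod-24 over the 12 arrays were nit-1, R12E2.11, endu-2, F01D5.3 and Y44A6C.1. Among 20809 probe sets with a single gene symbol, nit-1, a nitrilase homologue, had the highest Pearson r (0.973, Spearman 0.937), followed by R12E2.11 (0.951), endu-2, an endoribonuclease of the EndoU family (0.949), F01D5.3 (0.945) and Y44A6C.1 (0.920). The lowest were viln-1, a homologue of villin (-0.923), and swsn-7, a chromatin remodelling gene (-0.910). A second probe set of endu-2 stood at 0.833, at rank 148. A second probe set of viln-1 stood at -0.605 and a second one of swsn-7 at 0.441, on the other side of 0. The arrays share heme level, genotype and the shift of number 3, so r describes these arrays only.

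The level of nit-1 (188607_at) was 8.74, 8.92 and 7.65 in mutants at 20 µM, against 7.27, 6.97 and 6.81 in mutants at 4 µM. In wildtype it was 9.08, 9.03 and 7.55 at 20 µM, against 7.75, 7.91 and 6.86 at 4 µM. As with dod-24, the mutant's heme groups did not overlap (4.87% of all probe sets) and the array numbered 3 was the lowest of each group (15.8%). The heme differences were 1.42 in the mutant and 1.05 in wildtype for nit-1, 1.94 and 1.17 for F01D5.3, 1.21 and 0.79 for endu-2, 1.05 and 0.51 for R12E2.11, and 1.08 and 1.01 for Y44A6C.1, each smaller than that of dod-24. These genes were ranked on the levels of dod-24, so neither their heme differences nor the traits they share with dod-24 are independent support for it.

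After the mean of each array number was subtracted, nit-1 was again first (0.971), followed by endu-2 (0.966), T28B8.1 (0.956), R12E2.11 (0.947) and Y44A6C.1 (0.942), and F01D5.3 stood at rank 11 (0.926). The second probe set of endu-2 then stood at rank 342 (0.787). The lowest were then T06E4.5 (-0.976) and math-14 (-0.965). Of the other dod genes, dod-17 stood at rank 454 and dod-22 at rank 882 over the 12 arrays, far below the closest genes.

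**Figure D4:**
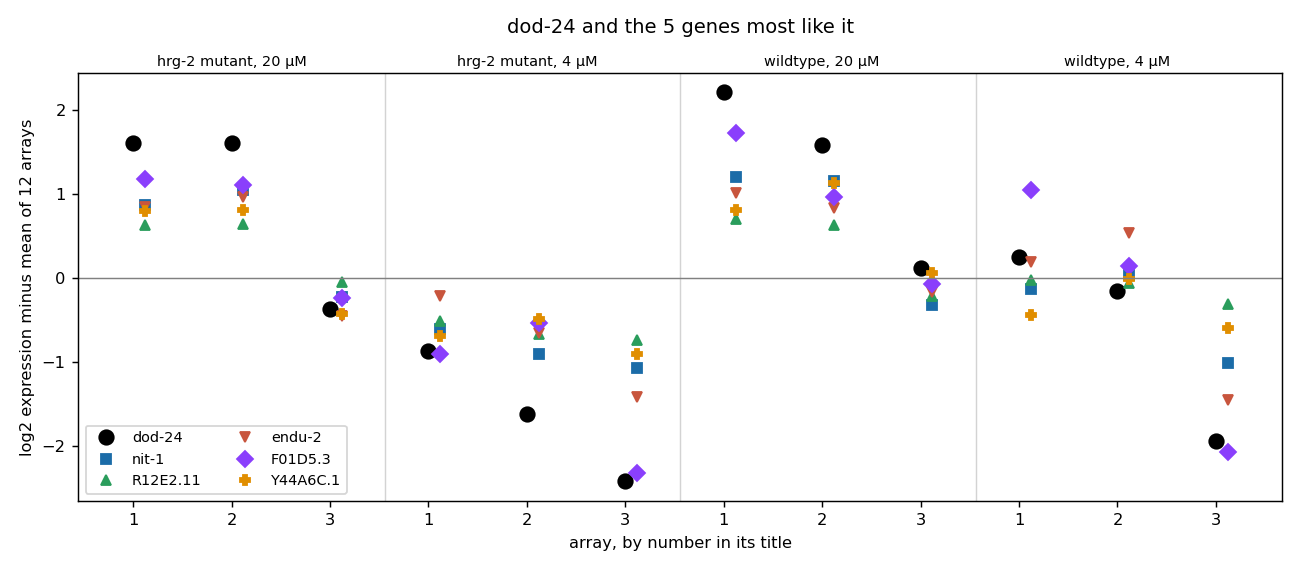
Log2 expression minus each probe set's mean over the 12 arrays for dod-24 (black) and the 5 genes with the highest Pearson r to it (r 0.920 to 0.973), by group and array number. All 6 lie above their own means on the arrays numbered 1 and 2 at 20 µM and below them on the arrays numbered 3 at 4 µM, and the excursions of dod-24 and F01D5.3 are the widest.

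On chromosome IV 4 of the dod genes lie in one stretch. From dod-21 to dod-17 the annotation lists 15 genes, both included, of which 13 have a probe set of their own. Between dod-21 and dod-24 lies 1 gene, between dod-24 and dod-22 lie 7 and between dod-22 and dod-17 lie 3. The heme difference was positive in both genotypes for 7 of the 13, negative in both for 2 and of opposite sign for 4. The largest beside dod-24 was that of mbug-1, the neighbour of dod-17. F55G11.2, between dod-22 and mbug-1, was at 1.53 ± 0.61 in the mutant and 0.42 ± 0.61 in wildtype, at a low mean level of 3.27. The 7 genes between dod-24 and dod-22 had heme differences between -0.38 and 0.31.

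For mbug-1 (182970_at) the levels were 10.13, 10.12 and 10.30 in mutants at 20 µM, against 7.36, 7.22 and 9.16 in mutants at 4 µM. In wildtype they were 11.23, 11.01 and 10.29 at 20 µM, against 10.30, 10.46 and 8.38 at 4 µM. The mutant groups did not overlap, as for 4.87% of all probe sets, and the wildtype groups did. The heme difference was 2.27 ± 0.61 in the mutant (limma adjusted p 0.769) and 1.13 ± 0.61 in wildtype (limma adjusted p 1.00). Averaged over heme mbug-1 was at -1.23 ± 0.43 in the mutant against wildtype (limma adjusted p 0.784).

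C32H11.4, on the same clone as dod-24 but outside the stretch, had 8.70, 8.33 and 8.82 in mutants at 20 µM, against 7.18, 6.55 and 7.32 in mutants at 4 µM, and 9.18, 9.03 and 8.43 in wildtype at 20 µM, against 8.69, 8.08 and 6.33 at 4 µM. Its heme difference was 1.60 ± 0.51 in the mutant (limma adjusted p 0.769), without overlap, as for 4.87% of all probe sets, and 1.18 ± 0.51 in wildtype. Over all 39 measured genes on the clones of the dod genes the median heme difference was -0.11 in the mutant and 0.07 in wildtype, limma called 0 of them in any of the 6 comparisons, and the median genotype difference averaged over heme was -0.02.

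**Figure D5:**
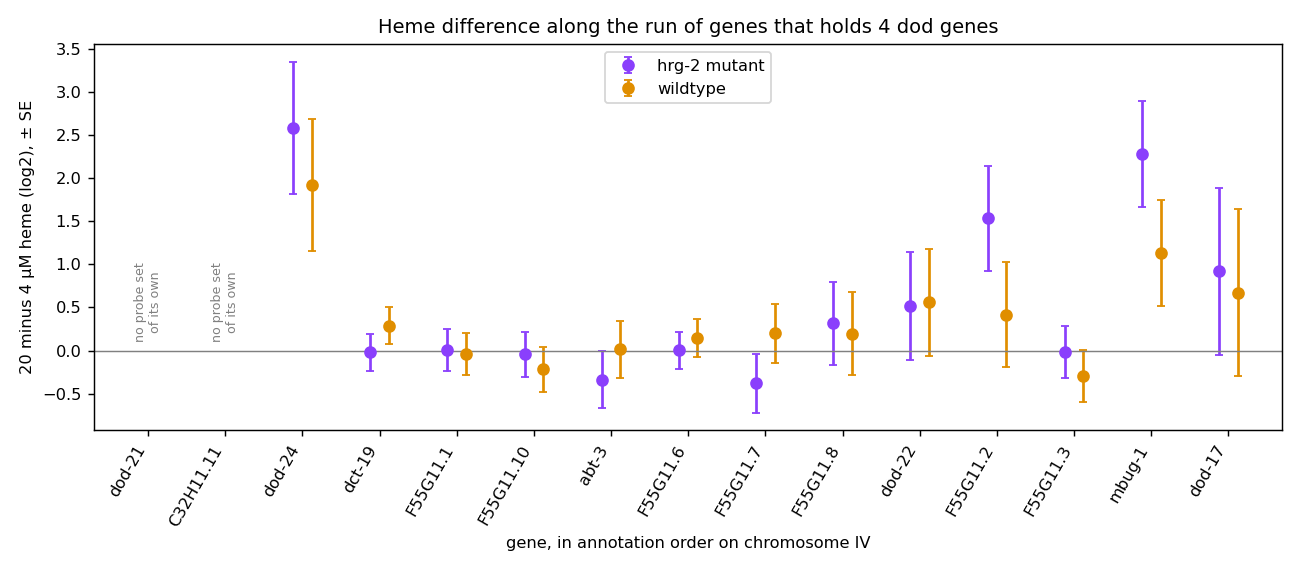
Heme difference (20 minus 4 µM, log2) ± SE from limma for the genes from dod-21 to dod-17 in annotation order on chromosome IV, in hrg-2 mutants and wildtype. dod-24 (2.58 and 1.92) and mbug-1 (2.27 and 1.13) stand above the genes between them in each genotype, and F55G11.2 is next in the mutant (1.53). For 2 genes there is no probe set of their own.

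The pathway around these genes was described from lists. Of 17 insulin signalling and DAF-16 genes, limma called 0 in any comparison, and their median differences were close to those of all probe sets, at 0.00 for genotype averaged over heme, -0.05 for heme in the mutant and 0.00 for heme in wildtype. Among them akt-1, a kinase of the pathway, was at 0.32 ± 0.14 for genotype averaged over heme (limma adjusted p 0.803). Of the 4 measured other dod genes limma called 0. Among them dod-6, a gene known to be raised by DAF-16, had 7.45, 8.82 and 10.53 in mutants with 20 µM heme, against 6.52, 6.99 and 9.51 in mutants with 4 µM. In wildtype it had 9.49, 10.62 and 10.22 with 20 µM, against 10.22, 10.30 and 9.29 with 4 µM, so the mutant arrays numbered 1 and 2 were the low ones. Averaged over heme it was at -1.72 ± 0.61 in the mutant against wildtype (limma adjusted p 0.784), on a probe set that can match other transcripts, and dod-18 was at 0.27 ± 0.19 (0.839).

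Of 28 measured pathogen-response effectors limma called 0 in each of the 6 comparisons. Their median heme difference was 0.31 in the mutant and 0.28 in wildtype, against -0.05 and -0.005 over all probe sets, with 23 of 28 positive in each. Their median genotype difference averaged over heme was -0.17, against 0.02 over all probe sets, with 23 of 28 negative. The share of all probe sets with each sign is not given, so nothing is read from these counts. The 2 of smallest p for genotype were clec-60, a C-type lectin (-0.94 ± 0.32), and spp-18, a saposin-like protein (-0.66 ± 0.25), with limma adjusted p values of 0.784 and 0.803. At each heme level both were lower in the mutant on the arrays numbered 1 and 2 and higher on those numbered 3. At 20 µM the arrays numbered 3 had 11.47 in mutants against 11.20 in wildtype for clec-60, and 11.67 against 11.31 for spp-18. The infection-response gene irg-4 had 10.11, 9.89 and 8.42 in mutants with 20 µM heme, against 9.15, 8.86 and 6.65 in mutants with 4 µM. In wildtype it had 10.93, 10.74 and 9.56 with 20 µM, against 10.66, 10.23 and 8.27 with 4 µM. Like dod-24, it was lowest on the array numbered 3 of each group, as for 15.8% of all probe sets. Its heme difference was 1.25 ± 0.81 in the mutant and 0.69 ± 0.81 in wildtype.

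Another, clone-based list held irg-4, irg-5, irg-6, dct-17, dct-18 and all measured genes of 4 clones, in place of CUB-domain genes. Whole clones were taken, so genes such as vha-8, dyci-1 and col-130 are in it, and a relation to the dod genes was not checked. Of its 36 measured genes limma called 0 in any comparison. Their median difference was 0.09 for heme in the mutant, 0.13 for heme in wildtype and -0.02 for genotype averaged over heme. For genotype, irg-4 was at -1.22 ± 0.57 (limma adjusted p 0.805) and dct-17 at -0.22 ± 0.11 (0.808). Of 13 measured genes of the p38 MAPK immune pathway and its regulators limma called 0, with medians of -0.13 for heme in the mutant, 0.05 for heme in wildtype and -0.08 for genotype. The 2 of smallest p were dbl-1, a TGF-beta ligand (-0.54 ± 0.24), and fshr-1, a receptor (-0.37 ± 0.24), with limma adjusted p values of 0.803 and 0.834. Unadjusted p values for genotype averaged over heme were under 0.05 by limma for 6.18% of all probe sets. They were under 0.05 for 8 of the 39 clone neighbours, 1 of the 4 other dod genes and 4 of the 28 pathogen-response effectors. The same held for 0 of the 17 insulin signalling and DAF-16 genes, 0 of the 36 genes of the clone-based list and 1 of the 13 p38 MAPK pathway genes. On the arrays numbered 1 and 2 alone, in a fit that called 13.3% of all probe sets in either direction, limma called more of these lists for genotype averaged over heme. It called 2 pathogen-response effectors higher and 9 lower in the mutant, and 0 clone neighbours higher and 8 lower. Of the clone-based list it called 2 genes higher and 5 lower. It called 1 gene lower of the insulin signalling list, 1 lower of the other dod genes and 0 of the p38 MAPK pathway. At 4 µM, where 13% of all probe sets were called, it called 0 effectors higher and 9 lower.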

How the data were processed

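Per the labels' protocols, total RNA was isolated on columns and biotin-labelled cRNA was made from it. The deposited log2 values, 1 per probe set and array, were made by the authors with RMA in Partek 6.5, per the submitters' processing notes, and the array medians lay between 5.74 and 5.93. Of 22625 probe sets deposited, 77 controls were left out and 22548 tested. The platform annotation of 2016, checked against RefSeq (assembly WBcel235), pairs 20810 with 1 symbol, 843 with several and 895 with none, and 0 symbols changed. For the 2998 genes with more than 1 probe set, the one with the highest mean is shown.

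Differences were tested two-sided with R 4.3.3 and limma 3.58.1 (functions lmFit, eBayes), as 1 model of 4 group means on 12 arrays with 8 residual and 2.24 prior degrees of freedom, Benjamini-Hochberg over all 22548 probe sets and a threshold of 0.05. The model was also run on simulated data. The outcome is not given here, so nothing is read from that run on how the model suits these arrays. Errors of differences are SEs. The members, lists and alternatives (block by array number, 2 groups alone, no moderation, variance trend, array weights, median centring, repeated quantile normalization, a filter on low values, arrays 1 and 2 only, leaving out each array, the mean of a gene's probe sets) were chosen with earlier results of these data known. Named were all members, the 5 genes with the highest and 2 with the lowest r to dod-24, from each list the 2 of smallest p for genotype averaged over heme and those past the threshold, and clone neighbours by their values. Some genes that this rule names, mostly cell type markers, are not reported here.

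Array titles carry the numbers 1 to 3. As a check of pairing, deviations from group means were correlated across probe sets. For all 12 same-numbered pairs of compared groups r ran from 0.255 to 0.817, against -0.792 to 0.606 for the 24 pairs of different number. Because array 3 stands apart in every group, it shapes these signs. Between arrays 1 and 2 the order was mixed. Wildtype array 1 at 20 µM correlated at 0.606 with mutant array 2 at 20 µM and at 0.426 with mutant array 1. Wildtype array 2 at 4 µM correlated at 0.789 with wildtype array 2 at 20 µM and at 0.434 with array 1. Equal numbers were compared throughout, but that they pair the arrays was not established. The shift of the arrays numbered 3 enters these values.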

Additional observations from a re-analysis of the deposited data

How the results depend on the processing

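The number of arrays, 3 in each group with one set apart, limits every difference. Of 608 member values recomputed over 22 settings, 551 counted as unchanged, 48 tested values reversed, 7 gained a call and 0 lost one. A further 2, untested, moved by more than the replicate spread. Tested values counted as unchanged kept their direction and side of the threshold. Heme differences and the genotype by heme value of dod-24 were untested and judged by size of move alone, so some counted as unchanged turned sign. Leaving out 1 array, the heme difference reached -0.48 for dod-17 in wildtype, and -0.24 for dod-22 and -0.63 for dod-23 in the mutant. The cause of the reversals was not tested. At 4 µM dod-17 turned to 0.037 with median centring and 0.056 with repeated quantile normalization, and dod-22 to 0.088 with array weights and 0.10 on the arrays numbered 1 and 2. At 20 µM dod-17 turned to -0.029 with array weights and -0.060 on arrays 1 and 2, and dod-23 to -0.12 on arrays 1 and 2. Averaged over heme dod-17 turned to -0.094 and -0.37 and dod-23 to -0.26 and -0.38 with array weights and on arrays 1 and 2. Genes called went from 0 to 2 at 4 µM on arrays 1 and 2, to 1 at 20 µM and averaged with array weights, and to 1 at 20 µM and 2 averaged on arrays 1 and 2. For heme in the mutant 1 was called with the replicate block, with array weights and on arrays 1 and 2, and for heme in wildtype 1 with the replicate block, which changed no other call. That gene was dod-24, chosen by its heme response, so these heme counts are no test of it. Leaving out 1 array at a time called 0 members in each comparison. The differences ran from -1.24 to 0.56 at 4 µM, -0.53 to 0.62 at 20 µM, -0.55 to 0.36 averaged and -0.43 to 1.40 for genotype by heme for dod-17. For dod-22 they ran from -0.77 to 0.48 at 4 µM, -0.54 to 0.085 averaged and -0.80 to 0.46 by heme. For dod-23 they ran from -0.99 to 0.25 at 4 µM, -0.64 to 0.83 at 20 µM, -0.41 to 0.33 averaged and -0.47 to 1.30 by heme, and for dod-24 from -0.95 to 0.30 at 20 µM. The heme difference of dod-24 stayed between 2.19 and 3.24 in the mutant and between 1.25 and 2.51 in wildtype. A fit of 2 groups alone cannot give the averaged difference or that of genotype by heme, and the filter on low values removed dod-17, dod-22 and dod-23.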

Other observations

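Genes known to be raised by DAF-16 were measured for 18 of 20 listed, and limma called 0 of them in each of the 6 comparisons (5 at an unadjusted p under 0.05 for genotype averaged over heme, against 6.18% of all probe sets). On the arrays numbered 1 and 2 alone limma called 6 of them at 4 µM, all lower in the mutant, in a fit that called 13% of all probe sets, and 8 for heme in the mutant, all higher with 20 µM, in a fit that called 14%. Their median heme difference (20 minus 4 µM) was 0.58 in the hrg-2 mutant and 0.12 in wildtype, against -0.05 and -0.005 over all probe sets. It was positive for 14 of 18 in each, and the share of all probe sets with that sign is not given. Their median genotype difference averaged over heme was -0.23, against 0.02 over all probe sets. The small heat-shock gene hsp-16.2 had 6.90, 7.93 and 7.85 in mutants with 20 µM heme, against 4.82, 3.43 and 7.49 in mutants with 4 µM. In wildtype it had 10.64, 10.58 and 8.96 with 20 µM, against 7.74, 7.31 and 8.87 with 4 µM. Its heme difference was 2.31 ± 0.91 in the mutant and 2.09 ± 0.91 in wildtype, and its genotype difference averaged over heme was -2.62 ± 0.64 (limma adjusted p 0.737). The heme difference of hsp-16.2 was small on the arrays numbered 3 (0.36 in the mutant and 0.08 in wildtype), where that of dod-24 was 2.05 and 2.06. The metallothionein mtl-1 was at -0.52 ± 0.18 for genotype (limma adjusted p 0.784).

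Marker lists had these median genotype differences averaged over heme, with 0 genes called by limma in each: -0.26 for 15 intestine genes, -1.80 for 5 yolk genes, 0.53 for 11 sperm genes, 0.41 for 10 oocyte and eggshell genes, -0.39 for 7 hypodermis genes, -0.25 for 4 body-wall muscle genes and 0.00 for 5 neuron genes. At 4 µM heme the genotype difference on array 3 stood apart for the yolk list and for the oocyte and eggshell list. The mean log2 level of the yolk genes was 5.71, 5.28 and 10.54 in mutants with 4 µM heme, against 9.45, 7.94 and 7.24 in wildtype with 4 µM, so the sign turned on array 3. That of the oocyte and eggshell genes was 6.42, 6.42 and 9.22 in mutants with 4 µM, against 6.79, 6.38 and 7.18 in wildtype with 4 µM, with the wide gap on array 3. At an unadjusted p under 0.05 limma found 2 intestine genes, 1 body-wall muscle gene, 1 neuron gene and 0 of the rest, against 6.18% of all probe sets. The intestinal GATA factor elt-2 was at -0.88 ± 0.26 (limma adjusted p 0.784).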
